A study of Homo sapiens with 6 samples.

Results

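Expression of 10 genes for Polycomb repressive complex 2 (PRC2) and for enzymes that write, maintain or remove DNA methylation was examined in lenalidomide-resistant myeloma cells. They were chosen by name: EZH1, EZH2, EED, SUZ12 and JARID2 for PRC2, and DNMT1, DNMT3A, DNMT3B, UHRF1 and TET2 for DNA methylation. All 10 had a row among the 12760 genes of the deposited table, and all 10 had a mean of at least 1 FPKM (reads set against gene length and library size), the minimum for testing. The cells were MM.1S, an established human myeloma line derived from malignant plasma cells. In LenR, MM.1S had been kept under lenalidomide, an agent that redirects a ubiquitin ligase to new proteins, with a starting dose of 10 nM that was raised 10-fold every month for 3 months. In WT, the reference line, MM.1S had been kept in the solvent DMSO over the same period. Each group had 3 libraries of total RNA, labelled as biological replicates, and the genotype label was WT in both. Whether the 3 LenR libraries came from separate selections is not given in the labels, nor is the presence of drug at harvest, and the spread behind each p-value is therefore that of these cultures.

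PRC2 places methyl groups on lysine 27 of histone H3, a mark of silenced genes. EZH2 or its paralogue EZH1 supplies the catalytic activity, EED reads the mark, SUZ12 holds the core together and JARID2 helps to bring the complex to chromatin. DNA methylation at CpG sites is set up by DNMT3A and DNMT3B, copied at replication by DNMT1, which UHRF1 guides to newly made DNA, and oxidised by TET enzymes such as TET2 on the way to its removal. EZH2, DNMT1 and UHRF1 are known to be more abundant in dividing cells, whereas EZH1 is the form that resting cells retain.

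The libraries held 14497346 to 17384388 reads in the 12760 genes listed, worked out from the FPKM values. Reads outside these genes are not counted. All 9 plasma cell markers had a row, and 5 of them rose in LenR, against 8.57% of all genes tested. Of the 5, CD38 alone kept its call with any 1 library left out (1 to 5 calls, with 1 without WT replicate 1 or WT replicate 2). Of the markers of other cell types, 1 of 7 for T and NK cells (CD3E, at 1.96 FPKM in LenR and 2.61 FPKM in WT), 0 of 6 for myeloid cells and 2 of 7 for epithelial and stromal cells, both under 1 FPKM, had one. WT replicate 3 and LenR replicate 2 deviated from their group means in similar ways (correlation 0.69 across 11276 genes). Below, they are called the libraries that stood apart. LenR replicate 3 deviated in the opposite way (correlation −0.68 with WT replicate 3). For each of the 10 genes, the plot of log2 fold changes also shows the difference without WT replicate 3 and LenR replicate 2. WT replicates 1 and 2 were unusually alike, with a mean chi-square per gene of 1.84 between their reads, against 9.32 to 23.6 for the other pairs within a group. They were kept as separate samples.

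EZH1 rose in LenR, while no other of the 10 genes passed the test. EZH1 measured 28.8, 29.7 and 29.1 FPKM in LenR replicates 1 to 3, against 22.1, 22.3 and 23.5 FPKM in WT replicates 1 to 3. Every LenR library was above every WT library, and the gap between the groups was several times the spread within either. The means were 29.2 ± 0.457 FPKM in LenR and 22.6 ± 0.752 FPKM in WT (SD, n = 3 each), a 1.29-fold difference. The log2 fold change on log2(FPKM + 1) was 0.36 (SE 0.061, 95% interval 0.21 to 0.50, limma with Benjamini-Hochberg adjustment over 11276 genes, adjusted p = 0.00639). Across all genes tested, 15.1% passed this test, 8.57% as higher and 6.57% as lower in LenR, so 1 called gene among 10 is not more than the table as a whole gives. At an unadjusted p under 0.05 by limma stood 3 of the 10 (EZH1, EZH2 and TET2), against 28.7% of all genes. In RNA from a whole culture, more cells that express a gene and more RNA per cell cannot be told apart.

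The rise of EZH1 did not rest on a single library. Leaving out each library in turn gave log2 fold changes of 0.34 to 0.38 and adjusted p-values of 0.011 to 0.0487 by limma. With WT replicate 3 and LenR replicate 2 omitted it was 0.37, and LenR replicate 2 minus WT replicate 3 gave 0.33. With WT replicates 1 and 2 averaged into 1 sample, the log2 fold change was 0.34 (limma, adjusted p = 0.045). A block for the replicate number ended the call (limma, adjusted p = 0.0848) in a fit that called 8.04% of all genes. The labels do not say whether libraries were paired by that number. EZH1 lies on chromosome 17 (42700275 to 42745049, minus strand, GRCh38). Among its neighbours, the 117 further tested genes at most 5 Mb away, the median log2 fold change was 0.02, and 6 were called higher and 6 lower. Between 1594 and 2362 reads per library stood behind the EZH1 values.

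**Figure D1:**
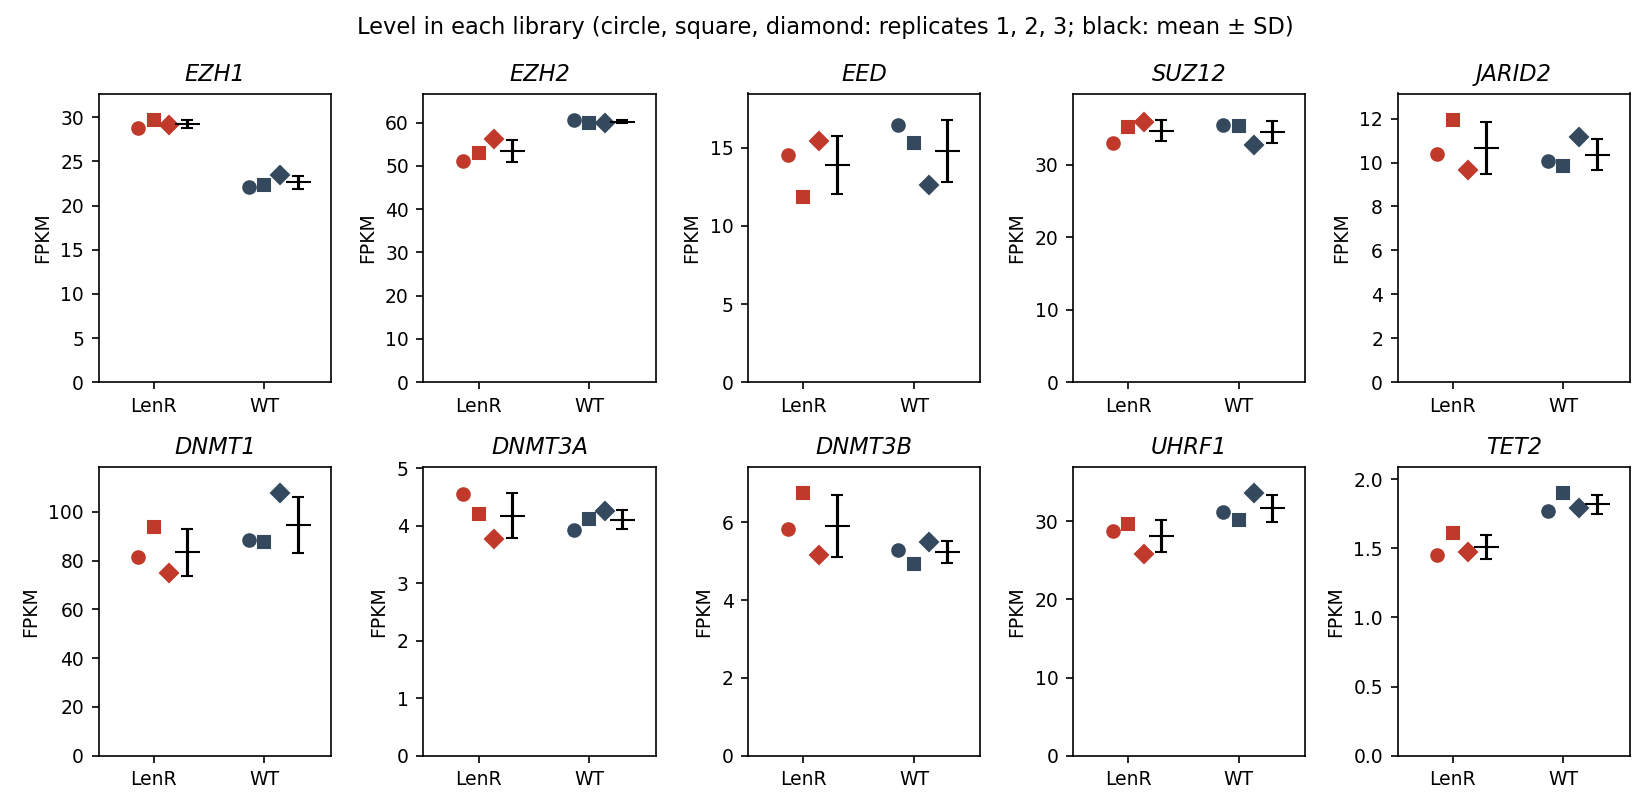
FPKM (vertical axes, linear, from 0) of the 10 genes in each library, with LenR left of WT; symbols mark the replicate number and black bars the mean ± SD over 3 libraries. EZH1 sits at 28.8 to 29.7 FPKM in LenR and 22.1 to 23.5 FPKM in WT, whereas for EED, SUZ12, JARID2, DNMT1, DNMT3A and DNMT3B the groups overlap.

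EZH2, the main catalytic subunit of dividing cells, lay on the other side of 0. Its values were 51.2, 52.9 and 56.3 FPKM in LenR replicates 1 to 3, against 60.7, 59.96 and 59.98 FPKM in WT replicates 1 to 3. The 3 WT libraries were nearly equal and all stood above the LenR libraries, which were more spread. The log2 fold change was −0.17 (SE 0.067, 95% interval −0.32 to −0.02) and did not pass after adjustment (limma, adjusted p = 0.138). Groups without overlap were common in this table, at 34.5% of the genes tested (18.0% higher and 16.5% lower in LenR). Among the 10 genes, 1 (EZH1) was without overlap and higher, and 3 (EZH2, UHRF1 and TET2) were without overlap and lower. Of all 10, 5 lay above 0 and 5 below, with a median log2 fold change of −0.04, against −0.00 over all genes tested. EZH2 is on chromosome 7 (148807383 to 148884321, minus strand), and the median over its 45 neighbours was 0.01. The LenR minus WT difference was −0.17 in the 4 libraries and −0.18 between LenR replicate 2 and WT replicate 3.

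Set against each other, the paralogues had ratios that did not overlap between the groups, in part through the EZH1 rise given above. The ratio of EZH2 to EZH1 was 1.77, 1.78 and 1.94 in LenR replicates 1 to 3, against 2.75, 2.69 and 2.55 in WT replicates 1 to 3. All LenR ratios were below all WT ratios. This ratio does not depend on how the libraries were scaled. On the log2 scale it averaged 0.87 ± 0.072 in LenR and 1.41 ± 0.054 in WT (SD, n = 3 each), a difference of −0.54. A two-sided exact permutation test gave p = 0.1, the smallest that 3 against 3 libraries allow. The sum of both genes hardly differed, at 82.7 ± 2.67 FPKM in LenR and 82.8 ± 0.605 FPKM in WT. EZH1 made up 36.05%, 35.99% and 34.1% of that sum in LenR replicates 1 to 3, against 26.7%, 27.1% and 28.1% in WT replicates 1 to 3.

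**Figure D2:**
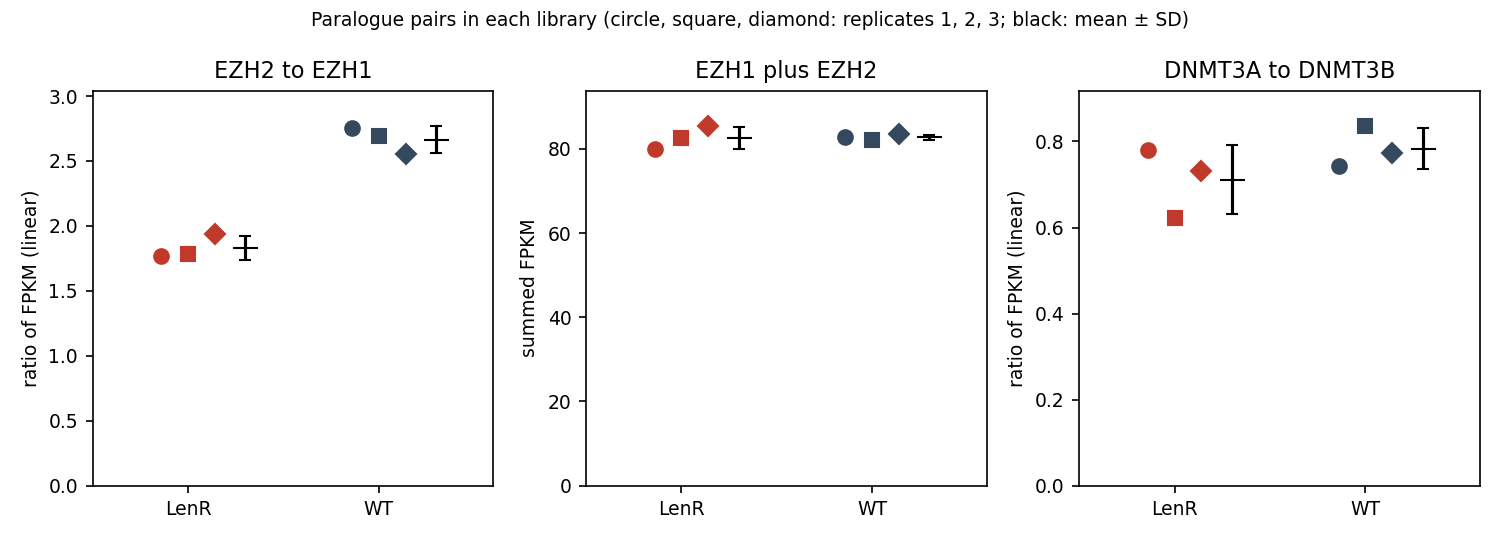
Ratio of EZH2 to EZH1, sum of EZH1 and EZH2, and ratio of DNMT3A to DNMT3B in each library, with LenR left of WT, on linear axes from 0; symbols mark the replicate number and black bars the mean ± SD over 3 libraries. The EZH2 to EZH1 ratios run from 1.77 to 1.94 in LenR and from 2.55 to 2.75 in WT, while the sums and the DNMT3A to DNMT3B ratios overlap.

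Both promoters are shown because the paralogues lay on opposite sides of 0, and they were searched for the binding motif of E2F factors, which drive many genes of dividing cells. The sequences (RefSeq, GRCh38.p14) run from 250 bases before the annotated start to 30 bases from it, on the strand of the gene, and capitals mark a motif match. The motifs were TTTCCCGC, TTTCGCGC, TTTGCCGC and TTTGGCGC on either strand.
EZH1 promoter, chr17:42745011-42745290, minus strand: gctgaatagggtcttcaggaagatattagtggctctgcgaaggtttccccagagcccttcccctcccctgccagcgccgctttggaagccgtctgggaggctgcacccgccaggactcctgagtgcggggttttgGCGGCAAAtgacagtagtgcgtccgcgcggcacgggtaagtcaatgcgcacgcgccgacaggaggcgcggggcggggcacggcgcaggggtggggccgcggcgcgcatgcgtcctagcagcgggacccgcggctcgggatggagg
EZH2 promoter, chr7:148884262-148884541, minus strand: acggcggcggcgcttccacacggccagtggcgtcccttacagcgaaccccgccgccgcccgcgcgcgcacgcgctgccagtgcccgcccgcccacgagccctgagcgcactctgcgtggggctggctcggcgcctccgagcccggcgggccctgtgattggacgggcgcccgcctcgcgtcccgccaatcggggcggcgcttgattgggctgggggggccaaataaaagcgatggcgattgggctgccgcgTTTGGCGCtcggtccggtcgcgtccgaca
Each of them held 1 match. That of EZH1 was TTTGCCGC on the opposite strand, with its first base at position −115 from the start, and that of EZH2 was TTTGGCGC at position 2 on the strand printed. The EZH1 window had 30 CpG sites and 68.6% G and C, and the EZH2 window 45 CpG sites and 75.0%, against medians of 25 sites and 65.4% over the 8461 tested genes matched by symbol. Of the promoters of tested genes, 5.4% held a match, and of all 27305 promoters 3.15%. A match describes the letters of the window and does not show binding.

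The remaining core subunits, SUZ12 and EED, and the accessory subunit JARID2 did not pass. SUZ12 measured 33.1, 35.3 and 35.9 FPKM in LenR replicates 1 to 3, against 35.5, 35.4 and 32.8 FPKM in WT replicates 1 to 3. Its log2 fold change was 0.01 (95% interval −0.15 to 0.17, limma, adjusted p = 0.957), and the sign turned to −0.04 in the 4 libraries without WT replicate 3 and LenR replicate 2. The groups overlapped. A pseudogene with its own row, SUZ12P1, measured 26.2 ± 2.71 FPKM in LenR and 24.0 ± 3.10 FPKM in WT (SD, n = 3 each). Reads of SUZ12 and SUZ12P1 may have been split between these rows, so the SUZ12 level is uncertain.

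EED overlapped between the groups. It measured 14.5, 11.8 and 15.4 FPKM in LenR replicates 1 to 3, against 16.5, 15.3 and 12.6 FPKM in WT replicates 1 to 3. LenR replicate 2 and WT replicate 3 were the lowest of their groups. The log2 fold change was −0.08 (95% interval −0.37 to 0.20, limma, adjusted p = 0.721), and it was 0.02 without LenR replicate 2. JARID2 measured 10.4, 11.9 and 9.65 FPKM in LenR replicates 1 to 3, against 10.1, 9.82 and 11.2 FPKM in WT replicates 1 to 3. Here the same 2 libraries were the highest of their groups. Its log2 fold change was 0.03 (95% interval −0.17 to 0.24, adjusted p = 0.855) and turned to −0.04 without LenR replicate 2.

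Among the enzymes of DNA methylation, the maintenance pair DNMT1 and UHRF1 had negative log2 fold changes that did not pass. DNMT1, the most abundant of the 10 genes, measured 81.3, 93.8 and 75.1 FPKM in LenR replicates 1 to 3, against 88.3, 87.8 and 108 FPKM in WT replicates 1 to 3. LenR replicate 2 overlapped the WT range, and WT replicate 3 was the highest library. The log2 fold change was −0.18 (SE 0.11, 95% interval −0.44 to 0.09, limma, adjusted p = 0.359). It was −0.17 in the 4 libraries without WT replicate 3 and LenR replicate 2, and −0.20 between those 2. Leaving out WT replicate 3 alone gave −0.08 and leaving out LenR replicate 2 alone gave −0.27, so its size depended on single libraries. With a term in the model for WT replicate 3 and LenR replicate 2, DNMT1 passed as lower (adjusted p = 0.0297), as did EZH2 (adjusted p = 0.0433), in a fit that called 28.1% of all genes, 15.3% as higher and 12.7% as lower in LenR. The labels give no such grouping of libraries, and the term was set from these same data. These calls of DNMT1 and EZH2 are therefore not independent support.

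UHRF1 measured 28.8, 29.7 and 25.8 FPKM in LenR replicates 1 to 3, against 31.2, 30.2 and 33.6 FPKM in WT replicates 1 to 3. No LenR library reached the lowest WT library, though the gap between LenR replicate 2 and WT replicate 2 was small. The log2 fold change was −0.17 (SE 0.078, 95% interval −0.35 to 0.02, limma, adjusted p = 0.211), and −0.11 without LenR replicate 3. DNMT1 and UHRF1 both lie on the short arm of chromosome 19 (10133345 to 10231286, minus strand, and 4903080 to 4962154, plus strand). The 157 and 160 tested genes around them had medians of 0.00 and −0.00. S1PR2 lies partly within the annotated span of DNMT1, and it measured 6.20 ± 0.349 FPKM in LenR and 6.27 ± 0.134 FPKM in WT (SD, n = 3 each).

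The promoters of DNMT1 and UHRF1 are shown because these genes shared the same order of libraries within each group. Both were highest in replicate 2 of LenR and in replicate 3 of WT. JARID2 and DNMT3B had the same order. The windows and the capitals are as for EZH1 and EZH2.
DNMT1 promoter, chr19:10194924-10195203, minus strand: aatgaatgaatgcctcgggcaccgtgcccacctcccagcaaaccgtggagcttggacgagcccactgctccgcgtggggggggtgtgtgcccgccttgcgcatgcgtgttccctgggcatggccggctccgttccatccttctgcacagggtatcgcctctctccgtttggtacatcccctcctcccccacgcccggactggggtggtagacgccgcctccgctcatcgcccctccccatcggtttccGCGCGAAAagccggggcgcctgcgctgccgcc
UHRF1 promoter, chr19:4909251-4909530, plus strand: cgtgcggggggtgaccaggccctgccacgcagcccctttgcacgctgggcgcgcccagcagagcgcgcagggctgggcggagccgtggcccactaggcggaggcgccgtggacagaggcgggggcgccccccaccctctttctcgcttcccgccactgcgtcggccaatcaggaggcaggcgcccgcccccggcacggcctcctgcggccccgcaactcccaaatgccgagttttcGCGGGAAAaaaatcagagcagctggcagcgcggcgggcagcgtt
Both held 1 match on the opposite strand, TTTCGCGC at position −2 in DNMT1 and TTTCCCGC at position −14 in UHRF1. SUZ12 had 1 match as well (TTTCCCGC at position −189). None of these letters were found in the windows of EED, JARID2, DNMT3A, DNMT3B and TET2. With EZH1 and EZH2, 5 of the 10 promoters held a match, against 5.4% of the promoters of tested genes. The 10 genes were chosen by name, and a link between matches and expression was not tested. The sequence of the UHRF1 window belongs to the first of the starts that RefSeq lists. The DNMT3B window (chr20:32779602-32779881) lay inside the annotated span of the gene (32762385 to 32809356, plus strand), not at its start. The windows of DNMT1 and UHRF1 also lay inside the spans given above. With 1 window per gene, matches at other starts were not searched for.

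The de novo enzymes DNMT3A and DNMT3B were expressed at a low level in both groups. DNMT3A measured 4.55, 4.20 and 3.77 FPKM in LenR replicates 1 to 3, against 3.92, 4.12 and 4.25 FPKM in WT replicates 1 to 3. The WT values lay inside the LenR range, and the log2 fold change was 0.02 (95% interval −0.16 to 0.19, limma, adjusted p = 0.912). DNMT3B measured 5.83, 6.75 and 5.15 FPKM in LenR replicates 1 to 3, against 5.28, 4.94 and 5.50 FPKM in WT replicates 1 to 3. LenR replicate 3 fell inside the WT range. Its log2 fold change was 0.14 (95% interval −0.07 to 0.36, limma, adjusted p = 0.373). It was 0.09 in the 4 libraries without WT replicate 3 and LenR replicate 2, and 0.25 between those 2 libraries. With 1 library left out it ran from 0.06 (without LenR replicate 2) to 0.22 (without LenR replicate 3).

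The balance of DNMT3A to DNMT3B overlapped between the groups. The ratio was 0.780, 0.623 and 0.731 in LenR replicates 1 to 3, against 0.743, 0.835 and 0.773 in WT replicates 1 to 3. LenR replicate 1 lay above WT replicates 1 and 3. The log2 ratio averaged −0.50 ± 0.17 in LenR and −0.35 ± 0.085 in WT (SD, n = 3 each), and the difference was −0.14 (two-sided exact permutation test, p = 0.3, where 0.1 is the smallest possible). Each DNMT3A value rested on 352 to 390 reads and each DNMT3B value on 372 to 495 reads.

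TET2, which oxidises methylated cytosine, was the least abundant of the 10 genes. It measured 1.45, 1.61 and 1.47 FPKM in LenR replicates 1 to 3, against 1.77, 1.90 and 1.79 FPKM in WT replicates 1 to 3. All LenR libraries were below all WT libraries. The log2 fold change was −0.17 (SE 0.067, 95% interval −0.32 to −0.01) and did not pass (limma, adjusted p = 0.142). TET2 has a long transcript, so 323 to 482 reads per library stood behind these low FPKM values, and on the reads themselves (voom) the adjusted p was 0.0681. At this level the pseudocount shrinks the fold change, and with a pseudocount of 0.1 FPKM the log2 fold change was −0.25. TET2 lies on chromosome 4 (105145875 to 105279816, plus strand), and the median over its 30 neighbours was 0.06.

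**Figure D3:**
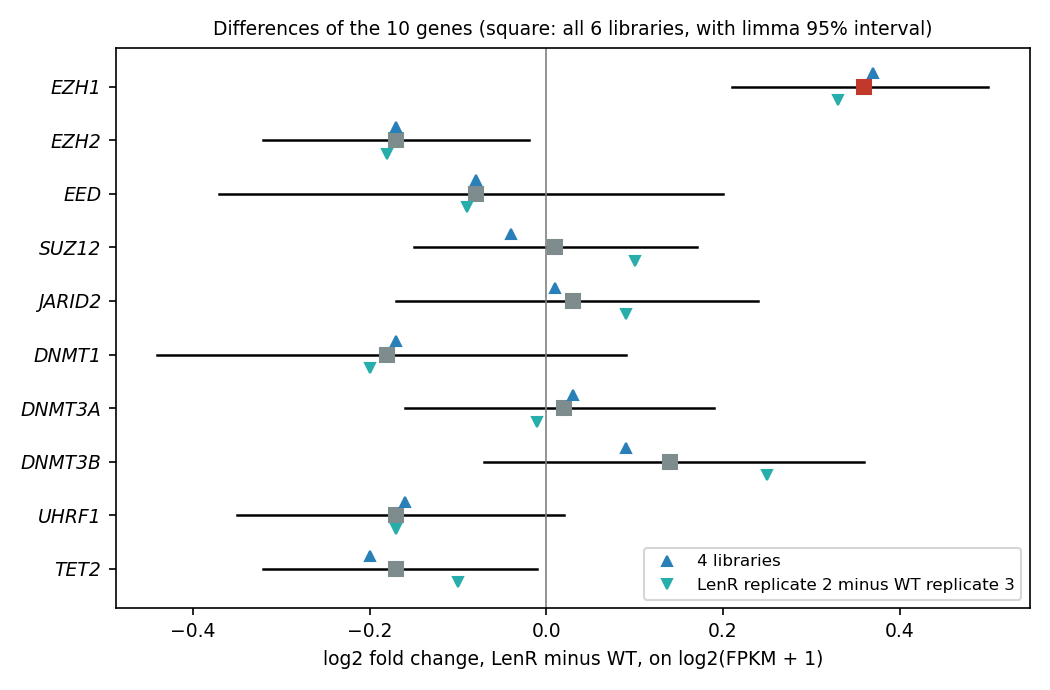
Log2 fold change, LenR minus WT, on log2(FPKM + 1) for the 10 genes, with squares for all 6 libraries (red where the limma test passed) and lines for the limma 95% interval; upward triangles omit WT replicate 3 and LenR replicate 2, and downward triangles show LenR replicate 2 minus WT replicate 3. The EZH1 interval runs from 0.21 to 0.50, and SUZ12 and DNMT3A have triangles on both sides of 0.

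The order of the levels differed between the groups at 1 place. In LenR the means ran DNMT1 (83.4 FPKM), EZH2 (53.4), SUZ12 (34.8), EZH1 (29.2), UHRF1 (28.1), EED (13.9), JARID2 (10.7), DNMT3B (5.91), DNMT3A (4.17) and TET2 (1.51). In that order EZH1 overlapped UHRF1, and EED overlapped JARID2, while all other neighbours were apart in all 3 LenR libraries. In WT, UHRF1 (31.7 FPKM) stood above EZH1 (22.6 FPKM), and these 2 genes were apart. SUZ12 overlapped UHRF1 in WT, and no other neighbours did.

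The spread within each group was read along the libraries that stood apart. In WT replicate 3 against the mean of WT replicates 1 and 2, DNMT1 differed by 0.29 and EED by −0.31 on the log2(FPKM + 1) scale. In LenR replicate 2 against the mean of LenR replicates 1 and 3, they differed by 0.26 and −0.32. Differences of at least 0.25 in the same direction in both libraries were seen in 4.54% of all genes tested upward and in 6.05% downward. JARID2 (0.15 and 0.23), UHRF1 (0.13 and 0.12) and DNMT3B (0.09 and 0.26) were also higher in both libraries. EZH1 (0.08 and 0.04) and EZH2 (−0.01 and −0.02) moved little.

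**Figure D4:**
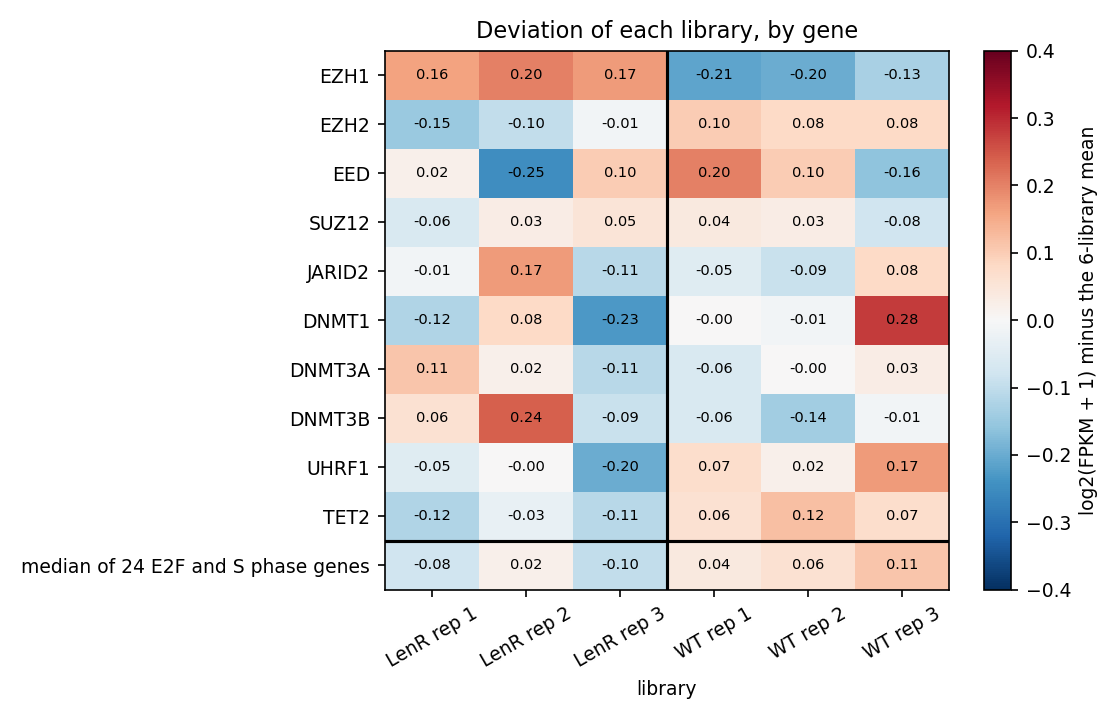
Deviation of each library from the 6-library mean on the log2(FPKM + 1) scale for the 10 genes, and below the line the median deviation of 24 E2F and S phase genes, with LenR columns left of WT columns. EZH1 is above its mean in all LenR libraries and below it in all WT libraries, whereas DNMT1 runs from −0.23 in LenR replicate 3 to 0.28 in WT replicate 3.

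Genes of DNA replication and division were examined beside EZH2, DNMT1 and UHRF1, since these are known to vary with division. Of 24 E2F and S phase genes, 5 fell and 0 rose, against 6.57% called lower and 8.57% called higher over all genes tested. In this list 20 lay below 0, against 5692 of the 11276 genes tested. The median log2 fold change was −0.12, against −0.00 over all genes tested. The 5 were the proliferation antigen gene MKI67 (−0.50), the ribonucleotide reductase subunit RRM2 (−0.41), the topoisomerase TOP2A (−0.35), and, named after their values were seen, the replication licensing factor CDC6 (−0.28) and cyclin E1, CCNE1 (−0.24). Over all 24 genes the median deviation was −0.08, 0.02 and −0.10 in LenR replicates 1 to 3, against 0.04, 0.06 and 0.11 in WT replicates 1 to 3. PCNA, the replication clamp, did not pass (−0.12, limma, adjusted p = 0.505). Nor did E2F2 (−0.26), TK1 (−0.21), CCNA2 (−0.20), TYMS (−0.20), MCM7 (−0.19), RRM1 (−0.18) and GINS2 (−0.11). Nearer to 0 were CCNE2 (−0.07), POLA1 (0.06), E2F1 (−0.02), E2F3 (0.01), CDT1 (0.01) and CDC45 (0.02). So were MCM2 (−0.06), MCM3 (−0.01), MCM4 (−0.04), MCM5 (−0.03) and MCM6 (−0.05). Of the 24 genes, 12 were without overlap and lower in LenR, against 16.5% of all genes tested. At an unadjusted p under 0.05 by limma stood 10 of the 24, against 28.7% of all genes tested. The part of cell division in the levels of EZH2, DNMT1 and UHRF1 was not tested. The calls of RRM2 and TOP2A ended without any 1 of WT replicates 1 and 2 and LenR replicate 1 (adjusted p up to 0.0932 and 0.104). That of CDC6 ended without these or LenR replicate 2 (up to 0.126), that of MKI67 without any library but LenR replicate 2 (up to 0.173) and that of CCNE1 without any of the 6 (up to 0.172). MKI67 was higher in both libraries that stood apart, by 0.27 in WT replicate 3 and 0.43 in LenR replicate 2, and with both omitted its log2 fold change was −0.55 (limma, adjusted p = 0.0022).

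Among the partners of maintenance methylation, of 7 tested, 2 fell, 0 rose and 6 lay below 0, with a median log2 fold change of −0.15. Of all genes tested, 6.57% were called lower and 8.57% higher. HELLS, a chromatin remodeller needed for DNA methylation, measured 9.24, 9.58 and 11.6 FPKM in LenR replicates 1 to 3, against 12.8, 13.5 and 12.6 FPKM in WT replicates 1 to 3 (log2 fold change −0.34, limma, adjusted p = 0.04). CDCA7, which recruits HELLS, measured 9.61, 10.7 and 11.1 FPKM in LenR, against 13.0, 12.8 and 12.8 FPKM in WT (−0.28, adjusted p = 0.0345). Neither gene overlapped between the groups. Both calls ended without any 1 library other than LenR replicate 3 (adjusted p up to 0.142 for HELLS and 0.136 for CDCA7). They also ended with both WT replicate 3 and LenR replicate 2 omitted (adjusted p = 0.0957 for HELLS and 0.0672 for CDCA7). UHRF2, the paralogue of UHRF1, did not pass (−0.12, adjusted p = 0.384).

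Among the other subunits of PRC2, 0 of the 7 tested passed by limma, 0 were at an unadjusted p under 0.05, and their median log2 fold change was −0.03. The histone-binding subunits RBBP4 and RBBP7 measured 34.3 ± 1.91 and 101 ± 5.48 FPKM in LenR, against 35.2 ± 0.583 and 103 ± 4.32 FPKM in WT (SD, n = 3 each). PHF19, a subunit that binds methylated H3 and helps to target PRC2, had a log2 fold change of −0.08 (limma, adjusted p = 0.589). The demethylases that remove the PRC2 mark, KDM6A (log2 fold change −0.19, adjusted p = 0.134) and KDM6B (−0.11, adjusted p = 0.632), did not pass. Nor did NSD2, a methyltransferase of H3 lysine 36 (−0.10, adjusted p = 0.415), or the 4 other genes of its list.

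PRC1, the complex that acts with PRC2 and ubiquitinates histone H2A, included called genes in both directions. Of 19 tested genes, 2 rose and 1 fell, with a median log2 fold change of 0.01. These 3 called genes among 19 are near the share of all genes tested that passed, 15.1%. KDM2B, which brings a PRC1 variant to CpG islands, measured 18.4, 20.8 and 18.0 FPKM in LenR replicates 1 to 3, against 10.6, 11.5 and 11.8 FPKM in WT replicates 1 to 3 (0.71, limma, adjusted p = 0.000745). It lies on chromosome 12 (121429097 to 121581015), where the median over its 76 neighbours was 0.33 and 73 of them were above 0. CBX7, a PRC1 subunit that binds the PRC2 mark, measured 26.3, 22.1 and 23.4 FPKM in LenR, against 15.6, 15.7 and 16.0 FPKM in WT (0.57, adjusted p = 0.00205). PCGF3, a subunit of another PRC1 variant, measured 1.50, 1.65 and 1.42 FPKM in LenR, against 3.25, 3.45 and 3.62 FPKM in WT (−0.81, adjusted p = 0.0003). The neighbours of CBX7 and PCGF3 had medians of 0.01 and −0.02. All 3 calls were kept with any 1 library left out.

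In the complex that removes ubiquitin from H2A, FOXK1 fell and OGT rose among 9 tested genes. Of all genes tested, 8.57% were called higher and 6.57% lower. FOXK1, a transcription factor of the complex, measured 4.14 ± 0.0899 FPKM in LenR and 8.05 ± 0.271 FPKM in WT (SD, n = 3 each; log2 fold change −0.82, limma, adjusted p = 0.000152). It lies on chromosome 7 (4682309 to 4771443), where all 51 neighbours were below 0, with a median of −0.72. OGT, a glycosyltransferase that binds TET enzymes as well, measured 116 ± 3.32 FPKM in LenR and 95.2 ± 2.36 FPKM in WT (0.28, adjusted p = 0.029), and its call ended without any 1 of the 6 libraries (adjusted p up to 0.128).

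Of 11 tested genes of DNA demethylation other than TET2, 1 rose and 0 fell, against 8.57% and 6.57% of all genes tested. TDG, the glycosylase that excises the oxidised bases made by TET enzymes, measured 28.2, 27.9 and 29.6 FPKM in LenR replicates 1 to 3, against 24.1, 23.5 and 21.1 FPKM in WT replicates 1 to 3 (log2 fold change 0.31, limma, adjusted p = 0.0267). Its 43 neighbours on chromosome 12 had a median of 0.34, and its call ended without any 1 library other than LenR replicate 2 (adjusted p up to 0.0796). TET1 measured 2.60 ± 0.150 FPKM in LenR and 2.11 ± 0.0524 FPKM in WT (SD, n = 3 each; 0.21, adjusted p = 0.0683), on the other side of 0 from TET2. TET3 measured 5.77 ± 0.402 FPKM in LenR and 5.87 ± 0.506 FPKM in WT (−0.02, adjusted p = 0.903). The sign of TET3 turned without WT replicate 3 (0.04) or LenR replicate 3 (0.02).

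**Figure D5:**
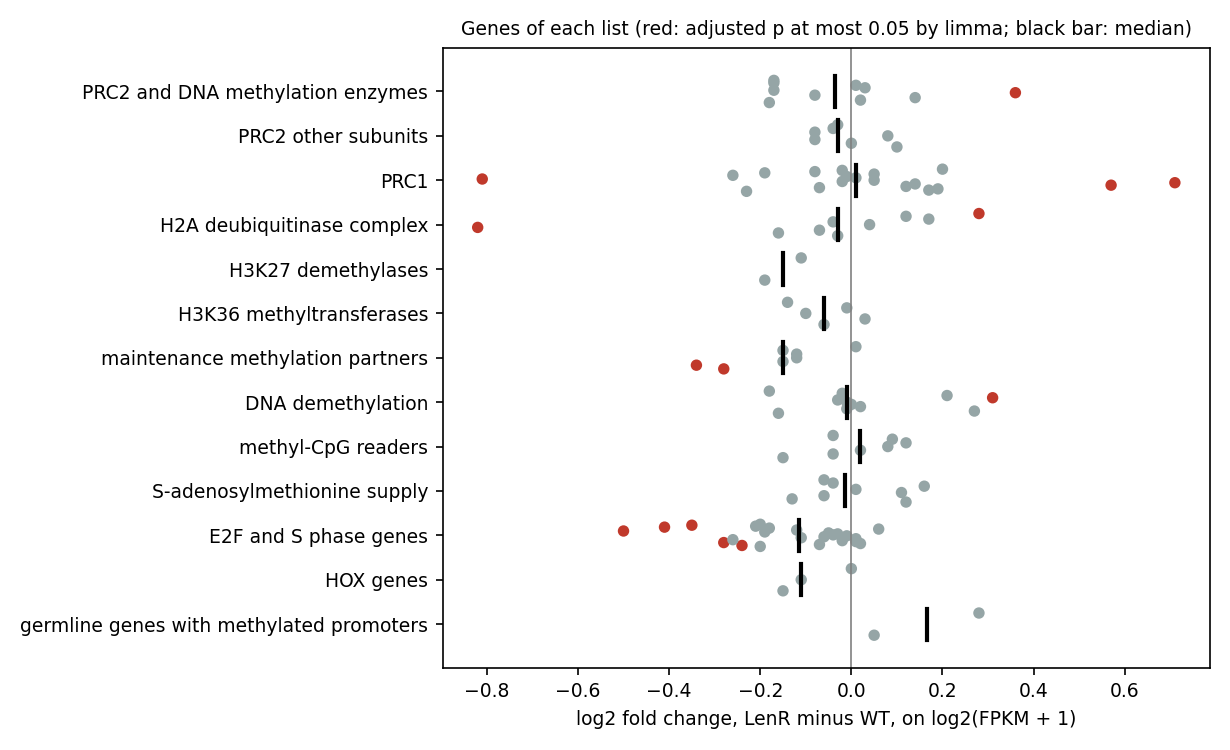
Log2 fold change, LenR minus WT, on log2(FPKM + 1) for every tested gene of the 10 enzymes and of 12 related lists, with 1 point per gene (red where the limma test passed) and a black bar at each list's median. The E2F and S phase list has its median at −0.12, and the furthest points are FOXK1 (−0.82), PCGF3 (−0.81) and KDM2B (0.71).

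Neither the readers of methylated CpG sites nor the enzymes that supply the methyl donor S-adenosylmethionine had a member that passed. At an unadjusted p under 0.05 by limma were 0 of 7 readers and 1 of 8 supply genes, and MAT2A, which makes the donor, measured 183 ± 9.17 FPKM in LenR and 169 ± 5.28 FPKM in WT (SD, n = 3 each; adjusted p = 0.379). Genes known as silenced by these marks in most tissues were read where they had a row. HOXB3, HOXB4 and HOXB7, 3 of the 39 HOX genes, which PRC2 represses in many cell types, had log2 fold changes of −0.15, −0.11 and 0.00, and none passed. Of 24 germline genes whose promoters are methylated in most body tissues, MAGEA1 measured 72.7 ± 1.11 FPKM in LenR and 70.3 ± 2.56 FPKM in WT, and SYCP3 54.7 ± 10.3 FPKM in LenR and 44.8 ± 7.60 FPKM in WT (SD, n = 3 each). Their log2 fold changes of 0.05 and 0.28 did not pass (limma, adjusted p = 0.696 and 0.314). SYCP3 lies on chromosome 12 (101728648 to 101739472), among the neighbours of TDG, whose median was 0.34. Since the table holds expressed genes only, it cannot show whether silenced genes stayed silent.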

How the data were processed

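Total RNA of 6 MM.1S cultures (3 LenR, 3 WT) was sequenced, and 1 table of FPKM values with a column per library was deposited by the authors. The submitters' processing notes name edgeR 3.40.2, featureCounts 2.0.3, HISAT2 2.2.1, FastQC 0.11.9 and hg38, without role or order. The annotation, the strand setting and the rule for expressed genes are not stated in the sources used here. Columns were matched to samples through the sample descriptions.

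Solving the FPKM values for library size and gene length returned whole reads (tolerance 0.03 read) for 100.0% of the 12760 genes. Gene positions came from GENCODE 29 on GRCh38, and promoters from RefSeq.

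The test was limma 3.58.1 (R 4.3.3; group as the only term, trended empirical Bayes variances, prior degrees of freedom 3.75) on log2(FPKM + 1), with no scaling added. It covered 11276 genes whose mean reached 1 FPKM, and 1484 were left out. Tests were two-sided with Benjamini-Hochberg adjustment and a threshold of 0.05. Fold changes on this scale understate those of low genes. The ratios used an exact permutation test (scipy 1.17.1). The test was checked on simulated data.

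The members, the 16 other gene lists and the alternatives were chosen with earlier results of these data known. Named were the 10 members, up to 3 called genes per direction and list, and 12 genes fixed by name. Alternatives were other pseudocounts, filters, scalings and empirical Bayes settings, voom on the recovered reads, a replicate block, WT replicates 1 and 2 averaged, a term for or the omission of WT replicate 3 and LenR replicate 2, and each library left out. Figures were drawn with matplotlib 3.10.9.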

Additional observations from a re-analysis of the deposited data

How the results depend on the processing

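EZH1 was above 0 in all 20 alternatives (log2 fold change 0.34 to 0.38) and kept its call by limma in 19. It lost the call with the replicate number as a block (adjusted p = 0.0848), where 0 of the 10 genes and 907 genes in all passed, against 1 and 1707. Same-numbered libraries did not deviate together (correlations 0.02, −0.56 and −0.68 across 11276 genes for replicates 1 to 3). The labels do not say whether they were paired. Sign flips over the replicate number gave exact p-values of 0.25 for the EZH2 to EZH1 ratio and 0.5 for the DNMT3A to DNMT3B ratio, with unchanged differences. Here 0.25 is the smallest p that such sign flips allow.

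The count of all genes was 1075 with a minimum mean of 5 FPKM, 1052 with WT replicates 1 and 2 averaged, 3163 with a model term for the libraries that stood apart (WT replicate 3, LenR replicate 2), 1824 without both, and 1006 to 1562 with 1 library left out. With that term, which was set from these same data, 3 of the 10 genes passed. The cause was not tested. DNMT3A turned to −0.01 with quantile normalization and SUZ12 to −0.04 without WT replicate 3 and LenR replicate 2. With 1 library left out the log2 fold changes ran from −0.03 to 0.08 for DNMT3A, −0.03 to 0.04 for SUZ12, −0.19 to 0.02 for EED, −0.04 to 0.10 for JARID2, −0.27 to −0.08 for DNMT1, 0.06 to 0.22 for DNMT3B, −0.21 to −0.11 for UHRF1, −0.07 to 0.01 for RBBP4, −0.19 to 0.01 for KDM6B and −0.07 to 0.04 for TET3. The EZH2 to EZH1 difference ran from −0.58 to −0.52 and the DNMT3A to DNMT3B difference from −0.21 to −0.05. No scaling moved the median of all genes by over 0.1. Depth was 323 reads or more per library for every one of the 10 genes.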
